A study of Bos taurus with 8 samples.

Results

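9 genes of the complement system were followed here: C3, CFB, CFD, CFI, C5, C7, CD46, CD55 and CD59. Complement is a cascade of plasma and cell-bound proteins. In its alternative pathway C3b, the active fragment of C3, binds factor B, which factor D cleaves to form an enzyme that activates more C3 and then C5. C5b and C7 help to build the pore that inserts into membranes. Factor I destroys C3b, and CD46, CD55 and CD59 protect host cells at their surface. At the maternal-fetal interface these regulators are known for shielding fetal cells from maternal complement, and in the mouse loss of the rodent regulator Crry leads to C3-dependent death of embryos. C3 is also known as a secreted product of uterine epithelium that oestrogen induces in the rat.

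The 9 genes were chosen by name, as every non-control probe whose symbol was 1 of them. They had 35 probes of the 51282 on the array and were 9 of 16911 gene symbols. RNA was measured on 8 one-colour arrays of cattle probes, 4 labelled pregnant and 4 labelled non-pregnant, and all samples are labelled fetal cotyledon (the fetal part of the ruminant placentome) from females. The labels give cattle as the organism, yet their protocol says that gravid uteri of buffalo were collected at a slaughterhouse, and a further label places the pregnant samples after and the non-pregnant samples before pregnancy. No age, stage, breed or treatment is given for any animal. Whether a group's replicates are separate animals is not labelled, and the p-values then speak only of the spread among the 8 samples, which may be technical.

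The tissue label was set against marker genes, and the group labels went against them. All 7 trophoblast markers were lower in pregnant-labelled arrays, where their summed signal was 0.330 to 2.02 times the array's 75th percentile, against 512 to 791 times in non-pregnant-labelled arrays. Trophoblast is the fetal epithelium of the cotyledon. Of 6 endometrium markers with a probe, 5 were higher in pregnant-labelled arrays, with a sum of 89.4 to 195 there and 0.677 to 2.73 in non-pregnant-labelled arrays. GRP carried most of the sum in pregnant-labelled arrays. PGR, ESR1, HOXD10 and SERPINA14 were higher as well, and OXTR was not called. The 5 erythroid markers were lower, with a sum of 0.608 to 2.86 in pregnant-labelled and 336 to 600 in non-pregnant-labelled arrays. Every direction below is one between labels, since the state of the tissue is not known. The 4 pregnant-labelled arrays lay in 1 row of the slide and the 4 others in the next, so slide row and group cannot be told apart. Among pregnant-labelled arrays, array 4 stood apart, correlating at 0.943 to 0.951 with the other 3, which correlated at 0.977 to 0.989 with each other.

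Values are log2 signals set to 0 at the 75th percentile of each array, so 1 unit is a 2-fold difference. A gene is represented by its brightest tested probe, and a probe was tested where at least 4 of the 8 arrays read it well above background. In limma, at a Benjamini-Hochberg adjusted p below 0.05 over all probes tested, 6 of the 9 genes were higher in pregnant-labelled arrays, against 29.9% of all 13197 tested genes. CD46 was lower, a direction taken by 32.9% of all genes, and CFD and C7 were not called. Because 62.8% of all genes were called in either direction, a call alone sets no gene apart. At least 2-fold and called were 6 of the 9, against 48.2% of all genes. The median difference of the 9 genes was 3.67 (log2), against -0.03 over all tested genes. The values of the groups did not overlap for 6 of the 9 genes and for 60.3% of all genes. Of the 35 probes 23 were tested, and 17 of these were higher and 4 lower, against 30.3% and 29.1% of all 34627 tested probes (59.4% in either direction). The groups did not overlap on 19 of the 23, against 55.4% of all tested probes. These counts include C3, CFI and CD46 probes that passed the filter through their bright group alone. For those probes the call was close to fixed in advance and adds no support. Each sample is a bulk of cells, so fewer cells of a type and less RNA per cell cannot be told apart.

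**Figure D1:**
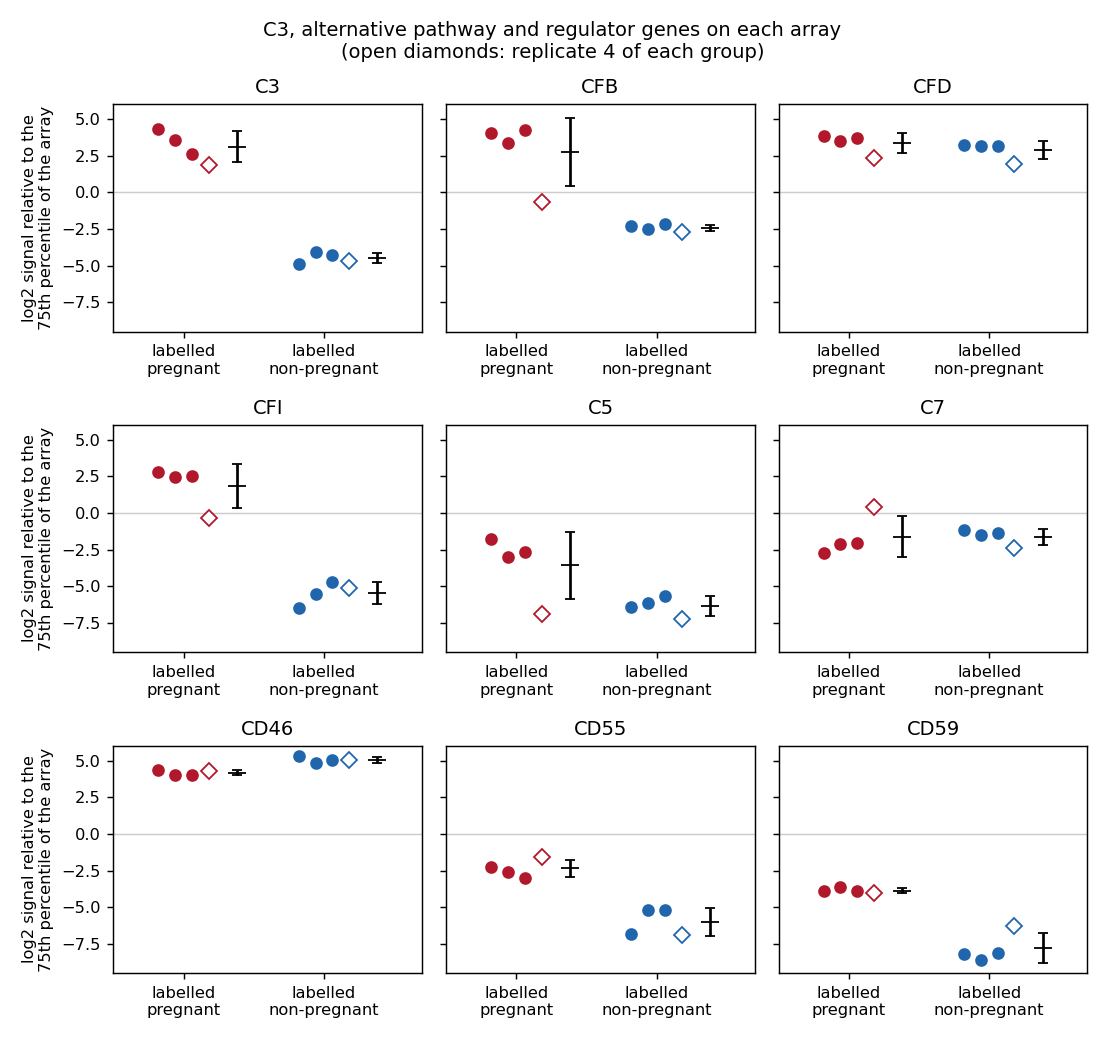
Log2 signal relative to the 75th percentile of the array (vertical axis) of the 9 genes on each array, red for labelled pregnant and blue for labelled non-pregnant, with the mean and SD of each group of 4 in black. C3, CFI, CD55 and CD59 lie well above in pregnant-labelled arrays, and the open diamond of pregnant-labelled array 4 lies far below its group for CFB, CFI and C5.

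C3, the central protein of all complement pathways, and CFI had the largest differences of the 9 genes. C3 came first at 7.57 against 7.30 for CFI, but CFI did without pregnant-labelled array 4 (7.98 for C3, 8.04 for CFI) and with the mean over the probes of a gene (5.82 for C3, 6.60 for CFI). Its probes read the gene on chromosome 7 of the build Btau_3.1 that the file headers name, on the plus strand. 3 of them are shown, the 2 brightest because the largest signals rest on them and the third because it holds the active site. They lie at chr7:16354080-16354139, within chr7:16353066-16353622 and at chr7:16339890-16339949. The capitals of the third mark the codons of the internal thioester that bonds C3b to surfaces.
C3 A_73_P102201: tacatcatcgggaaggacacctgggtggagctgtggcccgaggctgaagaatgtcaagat
C3 A_73_111379: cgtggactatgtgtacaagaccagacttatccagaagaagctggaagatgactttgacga
C3 A_73_P380496: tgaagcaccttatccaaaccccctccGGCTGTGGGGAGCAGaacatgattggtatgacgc

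On the brightest probe C3 read 4.28, 3.59, 2.63 and 1.88 in pregnant-labelled arrays 1 to 4, against -4.86, -4.10, -4.27 and -4.68 in non-pregnant-labelled arrays 1 to 4. The groups were far apart, and every array of both was well above background. The average was 3.1 ± 1.06 in pregnant-labelled and -4.48 ± 0.36 in non-pregnant-labelled arrays (SD, n = 4 each), a gap of 7.57 with an SE of 0.48, or 190-fold (limma, adjusted p = 3.1e-06). Only 72 of the 13197 tested genes, 0.546%, had a larger increase.

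All 7 tested C3 probes were higher, by 2.58 to 8.95 on the log2 scale, and the groups overlapped on none of these 7. Of all tested probes 30.3% were higher, and the groups did not overlap on 55.4%. The difference was 7.57, 8.20 and 8.95 on the 3 most downstream probes, which span 1.357 kb of the genome. It was 6.23 at 5.255 kb upstream of the first. From the brightest upstream, these 4 probes had 4, 2, 1 and 1 of the 4 non-pregnant-labelled arrays well above background. With normexp background correction they gave 6.42, 6.12, 5.60 and 3.60, so the order of the first 3 depends on the background correction. The thioester probe, 14.19 kb upstream, read -1.06, -1.88, -2.92 and -3.25 in pregnant-labelled arrays and -4.46, -4.86, -4.70 and -5.40 in non-pregnant-labelled arrays. Its difference of 2.58 (SE 0.47, adjusted p = 0.00134) was the smallest of the 7 with the scanner's own background subtraction, and all 8 arrays were well above background there. With normexp it was 1.64, and the next 2 probes upstream gave 1.23 and 1.32. At 21.432 and 21.875 kb no non-pregnant-labelled array was well above background, so the changes are bounds, at least 9.50-fold and at least 8.07-fold higher. Of the 3 most upstream probes, 26.28 to 31.422 kb away, 2 were well above background on pregnant-labelled array 1 alone and 1 on no array. A bound sets the mean of the bright group against the higher of the probe's own signal and the dimmest signal that still passed as above background, and it holds only for the background subtraction used here. Tested probes with a bound passed the filter through the bright group alone. Their calls were therefore close to fixed in advance and add no support.

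**Figure D2:**
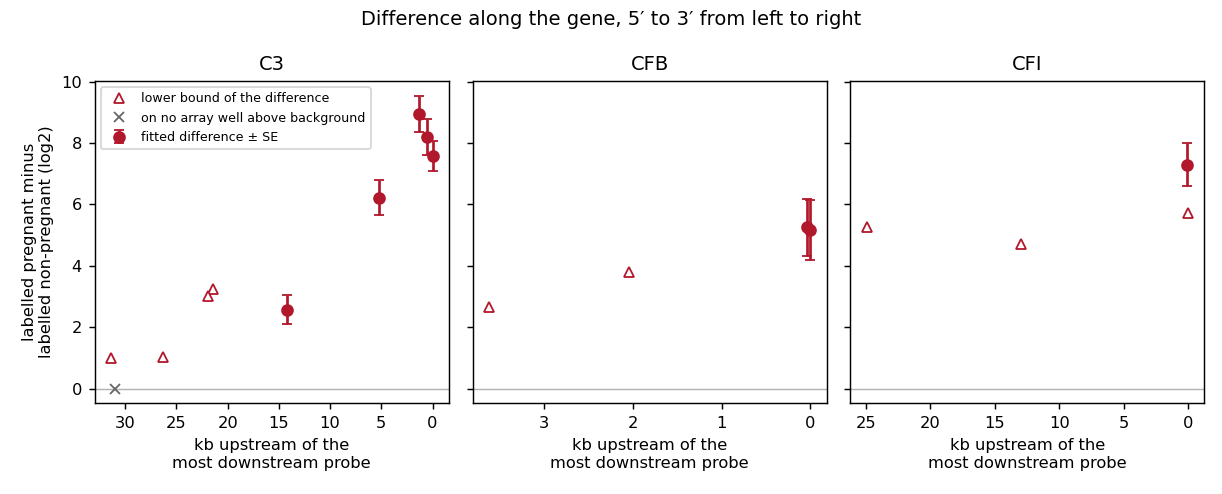
Difference between the groups (log2, labelled pregnant minus labelled non-pregnant, vertical axis) against the distance in kb upstream of the most downstream probe (horizontal axis), for C3, CFB and CFI. Circles are fitted differences with their SE, triangles are lower bounds where no non-pregnant-labelled array was well above background, and the cross is a C3 probe at background on all arrays. In C3 the 3 highest circles lie within 1.357 kb of the downstream end.

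Factor B (CFB) supplies the serine protease of the alternative pathway's C3-activating enzyme. Its brightest probe, A_73_118840, lies at chr23:27207253-27207312 on the minus strand of Btau_3.1. The probe beside it, at chr23:27207293-27207352, is shown because both cover the same end of the transcript, and the capitals mark the 20 bases that the probes share, so their readings are not independent.
CFB A_73_P049501: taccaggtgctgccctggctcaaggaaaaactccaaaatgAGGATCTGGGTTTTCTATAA

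CFB read 4.06, 3.37, 4.25 and -0.67 in pregnant-labelled arrays, against -2.34, -2.48, -2.18 and -2.68 in non-pregnant-labelled arrays. Pregnant-labelled arrays 1 to 3 were high and array 4 lay between them and the other group, yet the groups did not overlap. The average was 2.75 ± 2.31 in pregnant-labelled and -2.42 ± 0.21 in non-pregnant-labelled arrays (SD, n = 4 each), a gap of 5.17 with an SE of 0.97, or 36.1-fold (limma, adjusted p = 0.00160). Without pregnant-labelled array 4 the difference was 6.31 (SE 0.26), or 79.4-fold. The overlapping probe gave 5.25. The 2 probes farther upstream, at 2.041 and 3.62 kb, were well above background on pregnant-labelled arrays 1 to 3 and on no non-pregnant-labelled array, with lower bounds of 14.0-fold and 6.28-fold and no test.

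Factor D (CFD, also called adipsin) is the protease that cleaves factor B, and it is known as a product of fat cells. The scanner files give no position for its probes. The second of them is shown because the call on CFD depends on it.
CFD A_73_P288946: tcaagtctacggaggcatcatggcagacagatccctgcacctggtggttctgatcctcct

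The brighter CFD probe read 3.82, 3.53, 3.67 and 2.32 in pregnant-labelled arrays and 3.19, 3.16, 3.13 and 1.96 in non-pregnant-labelled arrays. The groups overlapped, and array 4 of each was the lowest of its group. The difference was 0.47 with an SE of 0.41 and a 95% interval of -0.45 to 1.39 (limma, adjusted p = 0.339). On the probe shown above the difference was 0.87 with an SE of 0.32 (limma, adjusted p = 0.0441), a call kept in 9 of 18 alternative settings. CFD was thus not called on its brighter probe and called on the dimmer.

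Factor I (CFI) is the plasma protease that inactivates C3b with the help of cofactors such as CD46. Its 4 probes lie on the plus strand of chromosome 6 (Btau_3.1), the brightest, A_73_P272576, at chr6:17066486-17066545. The most upstream one, at chr6:17041640-17041699, is shown because it lies farthest, 24.955 kb, from the most downstream probe.
CFI A_73_P260416: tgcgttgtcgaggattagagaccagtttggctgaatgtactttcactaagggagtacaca

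CFI read 2.79, 2.44, 2.57 and -0.36 in pregnant-labelled arrays, against -6.44, -5.48, -4.70 and -5.13 in non-pregnant-labelled arrays. As with CFB, array 4 was the low one of its group, and the groups were still far apart. The average was 1.86 ± 1.49 in pregnant-labelled and -5.44 ± 0.74 in non-pregnant-labelled arrays (SD, n = 4 each), a gap of 7.30 with an SE of 0.70, or 157-fold (limma, adjusted p = 3.08e-05). Of the non-pregnant-labelled arrays, 3 were well above background. Without pregnant-labelled array 4 the difference was 8.04, or 263-fold. On the other 3 probes no non-pregnant-labelled array was well above background, and CFI was at least 53.2-, 38.1- and 26.1-fold higher there. These 3 passed the filter through the pregnant-labelled arrays alone, so their limma calls add no support to that of the brightest probe. With normexp these 3 gave 3.12, 2.76 and 2.35 on the log2 scale. The increase on the brightest probe was exceeded in 87 of the tested genes, 0.659%.

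C5 and C7 belong to the terminal pathway. C5 is split into the inflammatory peptide C5a and the fragment that starts the membrane pore, and C7 anchors that pore in the lipid layer. The only C5 probe that was tested spans chr8:115731046-115735272 on the minus strand (Btau_3.1), 4227 bases of genome for 60 bases of probe, and it is shown because the call on C5 rests on it.
C5 A_73_P368921: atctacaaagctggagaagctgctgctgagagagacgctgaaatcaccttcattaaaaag

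On it C5 read -1.76, -2.99, -2.63 and -6.87 in pregnant-labelled arrays and -6.42, -6.12, -5.62 and -7.20 in non-pregnant-labelled arrays. Array 4 lay among the non-pregnant-labelled values, so the groups overlapped, and 3 pregnant-labelled and 2 non-pregnant-labelled arrays were well above background. The difference was 2.78 with an SE of 0.98, or 6.86-fold (limma, adjusted p = 0.0360). Without pregnant-labelled array 4 it was 3.88 (SE 0.42, adjusted p = 0.000105), or 14.7-fold. The call was lost without any 1 of pregnant-labelled arrays 1, 2 and 3 or non-pregnant-labelled arrays 1, 2 and 4 (differences of 2.18 to 2.85, adjusted p = 0.0645 to 0.0932), and with median scaling or quantile normalization. A second probe, A_73_100621 at chr8:115730140-115730199, read -0.34, -1.77, -1.61 and -7.99 in pregnant-labelled arrays and -7.87, -8.63, -8.18 and -8.14 in non-pregnant-labelled arrays. It showed the same split of array 4 from arrays 1 to 3, with a bound of at least 20.2-fold higher, and was not tested. The other 3 C5 probes were well above background on no pregnant-labelled array, and 1 of them was so on non-pregnant-labelled array 3.

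C7 (A_73_110571, chr20:35669018-35669077, minus strand) read -2.74, -2.11, -2.01 and 0.41 in pregnant-labelled arrays and -1.18, -1.49, -1.34 and -2.39 in non-pregnant-labelled arrays. Here array 4 was the high one among pregnant-labelled arrays, 2.70 above the mean of the other 3. The difference was -0.01 with an SE of 0.63 and a 95% interval of -1.45 to 1.42 (limma, adjusted p = 0.988). That interval includes changes of more than 2-fold both ways. Without array 4 it was -0.69 (adjusted p = 0.107).

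CD46, CD55 and CD59 protect the cell that carries them. CD46 is the cofactor with which factor I cleaves C3b, and in cattle it also serves as a receptor of bovine viral diarrhoea virus. Of its 6 probes, 4 lie between 73891685 and 73900210 on the minus strand of chromosome 16 (Btau_3.1). The first sequence below, from a probe spanning chr16:73894094-73900210, is shown because it was called lower in every setting tried. The other 2 probes carry a CD46 symbol but lie at chr16:74145621-74145680, outside that stretch. They are shown because they differ from each other only at the capitals, G24A and T57C counted from 1 at the 5′ end.
CD46 A_73_100255: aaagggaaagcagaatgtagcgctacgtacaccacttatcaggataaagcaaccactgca
CD46 A_73_P072491: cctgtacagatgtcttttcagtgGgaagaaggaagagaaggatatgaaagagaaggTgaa
CD46 A_73_P110911: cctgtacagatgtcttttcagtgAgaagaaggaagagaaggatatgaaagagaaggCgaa

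CD46 was the only member called lower. Its brightest probe, A_73_112325, read 4.37, 4.06, 4.03 and 4.33 in pregnant-labelled arrays and 5.33, 4.82, 5.08 and 5.04 in non-pregnant-labelled arrays. The spread within each group was small and the groups did not overlap. The average was 4.20 ± 0.18 in pregnant-labelled and 5.07 ± 0.21 in non-pregnant-labelled arrays (SD, n = 4 each), a gap of -0.87 with an SE of 0.19, or 1.83-fold lower (limma, adjusted p = 0.00342). With quantile normalization it was -0.29 and no longer called (adjusted p = 0.192).

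The other CD46 probes gave larger decreases. A_73_P105101, at chr16:73899556-73899615, read -1.69, -2.24, -1.62 and -0.24 in pregnant-labelled arrays and 0.68, 1.0, 0.99 and 0.75 in non-pregnant-labelled arrays, a difference of -2.30 with an SE of 0.39 (limma, adjusted p = 0.000859). The probe printed first above read -2.06, -2.58, -2.51 and -1.72 in pregnant-labelled arrays, against -0.74, -0.48, -0.71 and -0.57 in non-pregnant-labelled arrays. Its difference was -1.60 with an SE of 0.23 (limma, adjusted p = 0.000335), and both of these probes were called lower in 18 of 18 alternative settings. The fourth, A_73_P299151, was well above background on no pregnant-labelled array and on all 4 others, at least 1.98-fold lower. Its difference was 0.08 with normexp background correction. The pair of probes at the other position was well above background on no array.

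CD55 (decay-accelerating factor) takes apart the enzymes that activate C3 and C5. Its probe A_73_116775 lies at positions 7295 to 7354 of an unplaced contig of the same build. It read -2.24, -2.58, -3.00 and -1.56 in pregnant-labelled arrays and -6.80, -5.17, -5.16 and -6.91 in non-pregnant-labelled arrays. Array 4 was the highest of its group, unlike in C3, CFB and CFI. The average was -2.34 ± 0.61 in pregnant-labelled and -6.01 ± 0.98 in non-pregnant-labelled arrays (SD, n = 4 each), a gap of 3.67 with an SE of 0.50, or 12.7-fold (limma, adjusted p = 0.000240), with 2 of the non-pregnant-labelled arrays well above background. Its second probe was well above background on 1 pregnant-labelled array and was not tested.

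CD59 blocks the last step of pore assembly. It has a single probe, at chr15:64056107-64056166 on the minus strand (Btau_3.1), which is shown because the whole account of CD59 rests on it.
CD59 A_73_P039931: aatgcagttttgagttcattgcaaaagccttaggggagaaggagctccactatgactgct

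CD59 read -3.90, -3.61, -3.88 and -4.05 in pregnant-labelled arrays, against -8.17, -8.57, -8.08 and -6.27 in non-pregnant-labelled arrays. The 4 pregnant-labelled arrays lay close together, and 1 of the 4 others was well above background. The average was -3.86 ± 0.18 in pregnant-labelled and -7.78 ± 1.02 in non-pregnant-labelled arrays (SD, n = 4 each), a gap of 3.92 with an SE of 0.45, or 15.1-fold (limma, adjusted p = 9.30e-05). The 4 pregnant-labelled arrays were by themselves enough for CD59 to pass the filter, so its call adds little support. Its size depends on the background correction, and with normexp the difference was 1.32. The 3 membrane regulators did not share a direction: CD55 and CD59 were higher and CD46 was lower.

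**Figure D3:**
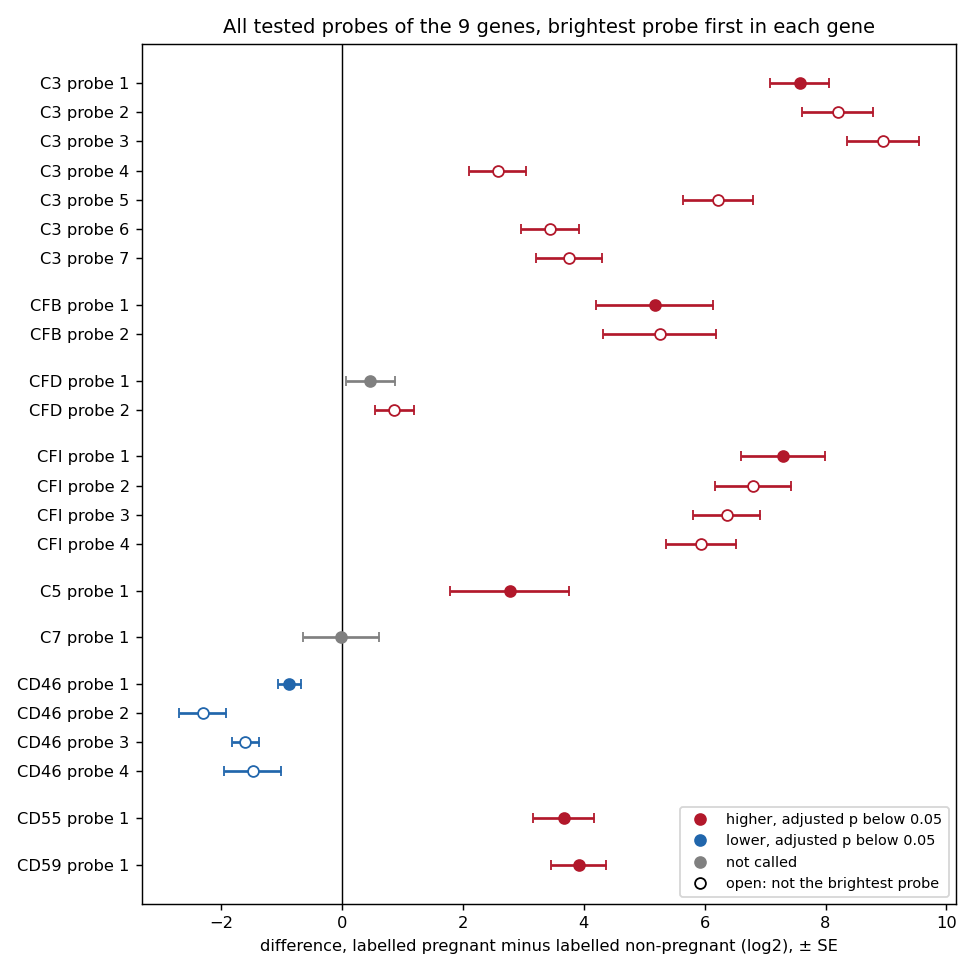
Difference of each of the 23 tested probes (horizontal axis, log2, labelled pregnant minus labelled non-pregnant, with SE), grouped by gene with the brightest probe first and filled. Red probes were called higher, blue lower, and grey ones were not called. All 4 CD46 probes lie below 0, all C3, CFB, CFI and C5 probes above it, and C7 at 0. The C3, CFI and CD46 probes that the text gives as bounds are drawn at their fitted differences.

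The size of several of these differences depended on the background correction. With normexp in place of the scanner's own subtraction, the difference was 6.42 for C3, 5.62 for CFI, 1.51 for C5, 1.85 for CD55 and 1.32 for CD59, each still called higher (limma, adjusted p = 1.18e-06 to 0.0197). For CFB and CD46 it moved less, to 4.86 and -0.83.

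Pregnant-labelled array 4 split the members. It lay below the mean of the other 3 by 4.56 for CFB, 4.41 for C5, 2.96 for CFI, 1.62 for C3 and 1.35 for CFD. For C7, CD55 and CD46 it lay above, by 2.70, 1.04 and 0.18, and for CD59 it was 0.25 below. Of the 12 marker lists, 10 were also lower there by their median gap, from -1.74 for T cell, -1.28 for endometrium and -1.20 for macrophage to -0.38 for endothelium and -0.10 for hepatocyte. Between these lay trophoblast (-0.84), fibroblast (-0.80), neutrophil (-0.65), smooth muscle (-0.58) and adipocyte (-0.45). The epithelium and erythroid lists were higher, by 0.71 and 0.61. Their part in the members' values was not tested.

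**Figure D4:**
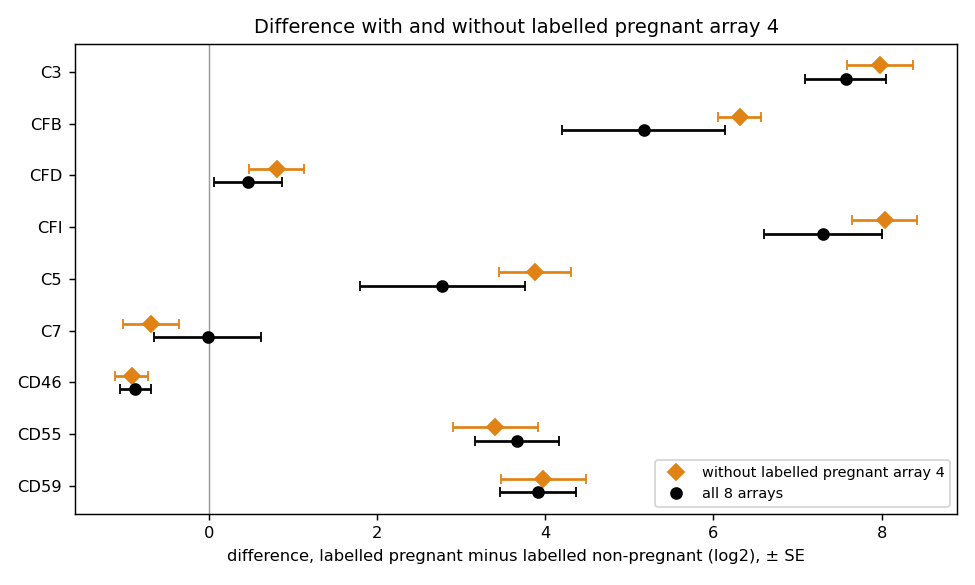
Difference (horizontal axis, log2, labelled pregnant minus labelled non-pregnant, with SE) of each of the 9 genes without pregnant-labelled array 4 (orange diamonds, 3 against 4 arrays) and with all 8 arrays (black circles). CFB goes to 6.31, CFI to 8.04 and C5 to 3.88 without it, and their SE shrinks.

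The liver makes most plasma complement, and macrophages, fibroblasts and fat cells also make parts of it, so markers of these cells were read on the same arrays. Of 9 hepatocyte markers 5 were tested, 3 higher and 2 lower in pregnant-labelled arrays, and the summed signal of the list was 3.37 to 4.62 in pregnant-labelled and 122 to 206 in non-pregnant-labelled arrays. APOA1 carried most of that sum, and ALB was higher by 2.79 while APOH and FGA were at background on all arrays. The 7 macrophage and monocyte markers had 2 higher and 3 lower, with sums of 21.6 to 46.8 in pregnant-labelled and 101 to 148 in non-pregnant-labelled arrays. Of 5 fibroblast markers 4 were higher, with sums of 261 to 438 in pregnant-labelled and 81.1 to 187 in non-pregnant-labelled arrays. Of 5 adipocyte markers 3 were tested, 1 higher and 1 lower, with sums of 0.346 to 0.940 in pregnant-labelled and 0.234 to 0.799 in non-pregnant-labelled arrays and ADIPOQ at background on all arrays.

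Markers of other cell types were read as well. All 5 T cell markers were higher (sums of 9.80 to 26.4 in pregnant-labelled and 3.09 to 4.36 in non-pregnant-labelled arrays), as were 4 of 5 smooth muscle markers (38.1 to 88.7 in pregnant-labelled and 17.6 to 25.4 in non-pregnant-labelled arrays). Of 5 epithelium markers 3 were lower (49.9 to 100.4 in pregnant-labelled and 145 to 240 in non-pregnant-labelled arrays). Of 5 endothelium markers 1 was higher and 1 lower (6.22 to 11.7 in pregnant-labelled and 6.27 to 7.99 in non-pregnant-labelled arrays), and of 3 tested neutrophil markers 1 was higher (0.127 to 0.437 in pregnant-labelled and 0.0670 to 0.430 in non-pregnant-labelled arrays). The sums of the adipocyte, endothelium and neutrophil lists overlapped between the groups. The shifts in the other cell markers ran along with the group labels. The part of any of these markers in the complement values was not tested.

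Beyond the 9 genes, the rest of the complement system was read from a list of 38 genes, of which 34 had a probe and 24 a tested one. Of the 24, 17 were higher, 2 were lower and 5 were not called, against 29.9% and 32.9% of all genes. Counted among the called are C5AR2, C8B, C4BPA and COLEC11, each well above background in 1 group alone. Their calls were close to fixed in advance. The median difference of the 24 genes was 2.10, also with genes at background in a group set to their bounds. In the alternative pathway and its receptors, 4 of 6 were higher. Among them were C3AR1, the receptor of the C3a peptide (5.21, SE 0.33, limma, adjusted p = 2.95e-06), the integrin chain ITGB2 of the C3 receptors (3.21), and the C5a receptor C5AR2, at least 10.4-fold higher. Properdin (CFP), which stabilises the pathway's enzyme, differed by -0.02 and VSIG4, a macrophage receptor of C3b, by 0.74, and neither was called on its brightest probe. Of the 2 tested VSIG4 probes, the dimmer 1 was called higher.

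The classical and lectin pathways had 10 of 12 genes higher and 1 lower. C1S and C1R, the proteases of the first component, differed by 5.83 and 5.0 (SE 0.32 and 0.45, limma, adjusted p = 1.40e-06 and 2.13e-05). C1QC, a chain of the part that binds antibody, differed by 4.59 (SE 0.57, limma, adjusted p = 0.000142) and by 5.22 without pregnant-labelled array 4. COLEC11, a lectin that recognises sugars, went the other way. It averaged -7.47 ± 0.38 in pregnant-labelled arrays, none of them well above background, and 1.20 ± 0.33 in non-pregnant-labelled arrays (SD, n = 4 each), and was at least 202-fold lower. MASP1, a protease of the lectin pathway, was not called.

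Both tested genes of the terminal pathway were higher, C8B by at least 24.1-fold and C8G by 1.19 on the log2 scale. Among plasma regulators C4BPA, which acts with factor I on C4b, was at least 29.3-fold higher. CPN1, a chain of the carboxypeptidase that trims C3a and C5a, was lower, with a difference of -3.30 (SE 0.73, limma, adjusted p = 0.00401) and of -4.08 without pregnant-labelled array 4. With normexp the differences were 3.58 for C3AR1, 1.60 for C5AR2, 2.19 for C8B and 2.37 for C4BPA. They were -2.63 for CPN1 and -5.10 for COLEC11, and every direction was kept. The probes of C5AR2, C8B, C4BPA and COLEC11 passed the filter through 1 group alone, so their calls add no support. Clusterin (CLU), which binds the terminal complex, and SERPING1, the inhibitor of C1R and C1S, were bright in both groups and were not called. C5AR1, CR2, ITGAM, C6, C8A, C9, C4BPB, CPN2, VTN and MASP2 had probes but none that was tested. No probe carried the symbol of CFHR5, CR1, ITGAX or CD93.

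**Figure D5:**
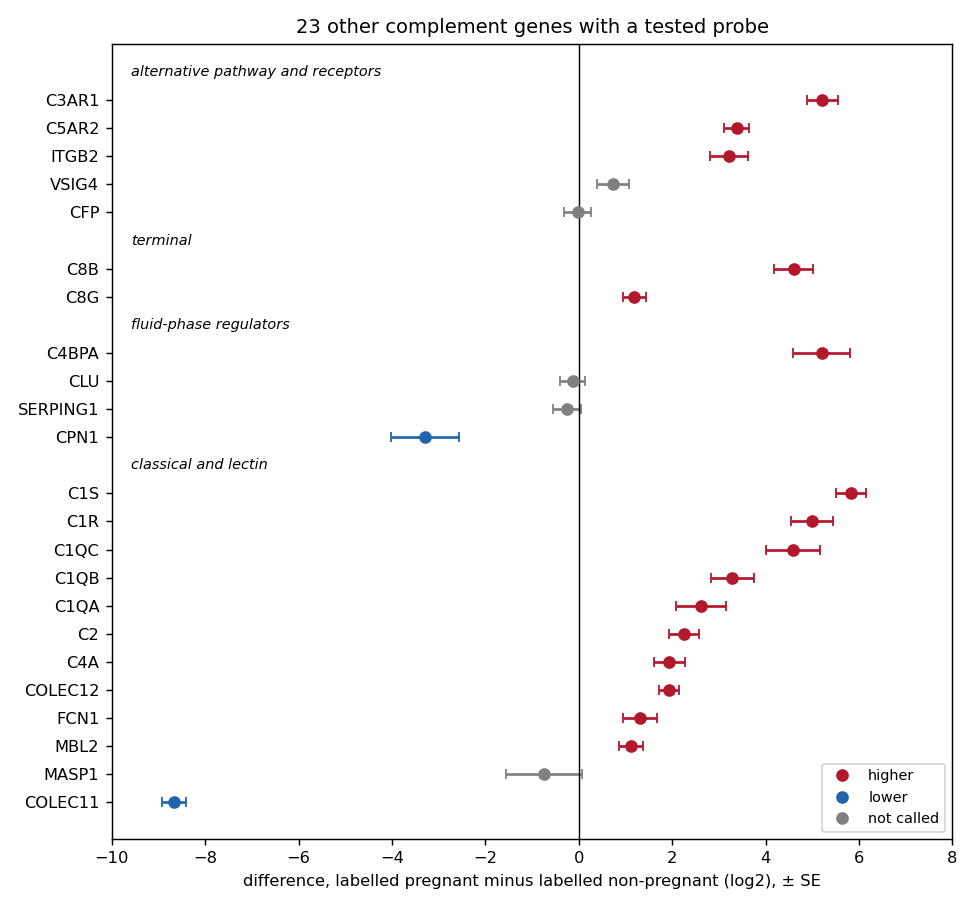
Difference (horizontal axis, log2, labelled pregnant minus labelled non-pregnant, with SE) of 23 other complement genes with a tested probe, in the order of the list's sections. Red genes were called higher, blue lower and grey were not called. C1S lies farthest on the higher side, and COLEC11 and CPN1 lie on the lower side. C5AR2, C8B, C4BPA and COLEC11 are drawn at their fitted differences, although the text gives them as bounds.

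The genes whose pattern over the 8 arrays was most like that of C3 were CD244, LOC513869, LRRC4C, TENM1 and ARHGAP20, at root mean square distances of 0.48 to 0.54 (log2) after each gene was centred on its own mean. Those most like CFB were AQP5, ADH6, LGR5, TNC and PVALB, at 0.57 to 0.73. Both lists were drawn from the 6359 other genes called at 2-fold or more, so the group difference itself enters the likeness.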

How the data were processed

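Total RNA of 8 samples was labelled with Cy3 and hybridised to 1 slide of 60-base cattle probes. The authors deposited spot intensity values as scanner output, made, per the file headers, with Agilent Feature Extraction 11.5.1.1 under protocol GE1_1105_Oct12, with the build named as Btau_3.1, background subtracted and no scaling between arrays. The other columns used, deposited in the same files, are flags per spot (well above background, saturated, outlying). The log2 value table deposited by the authors correlated with log2 of the processed intensity at 0.999 or above on each array, which gives its scale and direction, and it showed a 75th percentile near 0 and medians of -3.64 to -3.56 on pregnant-labelled and -4.21 to -3.77 on non-pregnant-labelled arrays, with no centring of probes.

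From log2 of each processed intensity the array's 75th percentile was subtracted. The 1319 control spots and the 5 to 31 outlier-flagged spots of each array were left out, no spot was saturated, and spots of 1 probe were averaged. The 75th percentile of intensity was 798 to 1347 on pregnant-labelled and 1168 to 1797 on non-pregnant-labelled arrays (log2 means 9.99 ± 0.31 and 10.47 ± 0.29, SD, n = 4 each, two-sided exact permutation test, p = 0.0857, smallest possible 0.0286). Probes well above background made up 63.7% ± 2.31 and 66.0% ± 2.78 (exact p = 0.257). Gene names came from the files, matched to cattle RefSeq symbols by accession for 28112 probes, by another accession for 1770, by symbol for 5523 and by synonym for 149, and 15728 probes kept the file's name. Positions within exons or introns were not used here, and buffalo RNA may bind cattle probes unequally.

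Groups follow the pregnancy label. limma 3.58.1 in R 4.3.3 (lmFit, eBayes, no covariates) was fitted to all 34627 tested probes and checked on simulated data. The number of arrays limits the precision. Named were all 9 members, the 6 called other complement genes with the largest difference in each direction, those without a tested probe, and the 5 genes most like C3 and CFB. The other complement genes printed beyond these were chosen after their values were seen. The members and the lists of complement genes and cell markers were chosen with earlier results of these data known. Replicate numbers were not used to pair the samples in the main fit. The value of 1 listed complement gene is not reported here.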

Additional observations from a re-analysis of the deposited data

Results flagged for a closer look

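CFI had 1 array far from the others of its group. Pregnant-labelled array 4 read -0.36 (log2, relative to the 75th percentile), against 2.44 for the nearest of the other 3, and the gap took up 0.889 of the group's range, above the critical value of 0.83 for 4 values. The same array was low for C3, CFB and C5.

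CFD had an outlying value among non-pregnant-labelled arrays. Array 4 read 1.96, against 3.13 for the nearest of the others, with a gap of 0.949 of the range. Chance flags about 1 in 20 such groups, and 22 groups were looked at, of which these 2 stood out.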

How the results depend on the processing

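Of 167 member values under 19 alternative settings, 149 kept their direction and their side of the threshold, 9 lost the call and 9 changed sign. C3, CFB, CFI, CD55 and CD59 were called higher in every setting in which they were tested. C5 lost its call with median scaling (2.39, adjusted p = 0.0547), with quantile normalization (2.39, adjusted p = 0.0714) and without any of 6 arrays, with a range of 2.18 to 3.88 over arrays left out. CD46 lost it with quantile normalization (-0.29). C7, never called, changed sign to 0.15 with normexp and 0.15 with the percentile over detected probes, and ranged from -0.69 to 0.36 when 1 array was left out. CFD, never called on its brighter probe, was -0.014 without scaling. With probes well above background on all 8 arrays, 5 members were tested and 3 called, because CFI, C5, CD55 and CD59 drop out. Otherwise 5 to 7 members were called, and 6 to 7 with 1 array left out. The mean over all probes of a gene gave 5.82 for C3 and -1.56 for CD46.

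Over all genes, 6912 to 9740 were called across settings. Of the calls 47.6% were higher, a share that dropped under median scaling (34.9%) and with unscaled arrays (31.7%). It passed the lower calls under the percentile over detected probes (53.8%), with dim probes kept (55.4%), under quantile normalization (50.8%) and under normexp (50.3%). Over all genes the median difference was -0.03, but -0.41 with median scaling, -0.51 with no scaling, 0.14 with the percentile over detected probes and 0.23 with no filter on dim probes. Once each probe was centred on the mean of its own group, arrays of the same number correlated weakly across groups, at 0.01 to 0.15. Even so, 3 of 4 pregnant-labelled arrays then correlated best with their own number. Whether the numbers pair the samples is thus not settled. A block for replicate number gave 8047 genes, 7 members and 20 other complement genes called and changed no member's call. Bounds rest on signal over background, and 1 slide with 4 arrays a group limits all values. The cause of the changes was not tested.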
